A study of Rattus norvegicus with 18 samples.

Results

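The hippocampus of rats killed right after their first spontaneous seizure (Chronic, n = 5) was compared with that of rats killed 7 days after status epilepticus (D7, n = 5). These 10 arrays were chosen by the source names given to them, and they are 10 of the 18 arrays of the series. All were of adult male Wistar rats that had received scopolamine methylnitrate and then pilocarpine, a muscarinic agonist that sets off status epilepticus (SE), which diazepam stopped. The D7 rats were in the latent period, before spontaneous seizures. The Chronic rats were followed by video and killed within hours of the first spontaneous seizure, and the day on which it came differed from rat to rat, so that time since SE and a recent seizure cannot be told apart in this comparison. Levels are also given for 5 arrays made 3 days after SE (D3) and for 3 of saline-treated rats (Control), 1 for each of the 3 times. Each array holds the total RNA of the whole hippocampus of 1 rat, so that fewer cells of a type and less RNA per cell cannot be told apart. Values are log2 of the normalized intensity, on which 0 is about the median spot of an array, and are listed in the order of the replicate numbers 31 to 35 for D7 and 41 to 45 for Chronic.

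Brain cells make nearly all of their cholesterol themselves, in a chain of enzymes that starts from acetyl-CoA and passes through mevalonate, squalene and lanosterol. The genes of these enzymes are switched on together by the transcription factor SREBP-2 when sterols in the endoplasmic reticulum are low. Immediate early genes such as Fos, Egr1 and Arc are transcribed in neurons within minutes of strong activity, need no new protein for it, and are widely used as marks of a recent seizure. In the weeks after SE, dividing microglia, reactive astrocytes and loss of neurons also change the RNA of the hippocampus.

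Some arrays stood apart from the others of their group. Granule cell markers were present throughout, with Prox1 and Calb1 flagged as good signal on all 10 arrays. The 16 measured choroid plexus markers, which belong to a neighbouring tissue, differed widely between arrays, with a mean log2 difference from Control of -1.24, -1.71, 2.15, -1.76 and 1.42 at D7 and 2.30, 0.61, -1.31, 2.29 and 0.59 in Chronic. It lay above 0 on D7 replicates 33 and 35 and on all Chronic arrays but replicate 43, but the Control arrays themselves ran from -1.29 to 1.27, a range that holds Chronic replicates 42 and 45. D7 replicate 31 had high levels of neutrophil genes, with S100a8 at 3.65, -1.07, -1.35, -2.0 and -0.77 in the 5 D7 arrays. D7 replicate 33 had the lowest correlation with its own group, a median Pearson's r of 0.952 over 30451 probes. The other D7 arrays were at 0.958 to 0.961 and the Chronic arrays at 0.960 to 0.966. A two-sided exact permutation test of these medians between the groups (n = 5 and 5) gave p = 0.0238. The medians of a group come from the same pairs of arrays and are not independent, so no conclusion is drawn from this p. Chronic replicate 41 had the highest mean of the 12 measured markers of thalamus, 0.94, against -0.11 to 0.25 on the other Chronic arrays. The share of spots flagged as good was 66.8% to 73.8% in Chronic and 66.9% to 71.0% at D7, with p = 0.437 by the same exact permutation test.

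Few genes differed singly between the first seizure and day 7, and some lists of related genes lay mostly on one side. Sterol synthesis genes were higher in Chronic, immediate early genes were higher on 3 of the 5 Chronic arrays but also on 1 D7 array, and genes of cell division were lower. Of 33800 probes tested with limma, 7 were higher in Chronic at an adjusted p under 0.05 and at least 2-fold (0.0207% of all probes) and 10 were lower (0.0296%). At an adjusted p under 0.05 alone 33 were higher (0.0976%) and 27 lower (0.0799%). These counts rest on an estimate of the spread that the 10 arrays share with D3 and Control. Fitted on the 10 arrays alone, 3 probes were higher and 0 lower with the 2-fold limit. In that fit 391 of 12331 genes (3.17%) were higher and 517 (4.19%) lower at an unadjusted p under 0.05. The test that the study's methods name for the arrays, run on each probe, left 0 in either direction after Benjamini-Hochberg adjustment. At an unadjusted p of 0.05 and 2-fold it left 91 of the 33800 probes higher and 239 lower. The study set these limits between pilocarpine and control rats, beside an intensity-dependent cutoff that was not applied here.

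**Figure D1:**
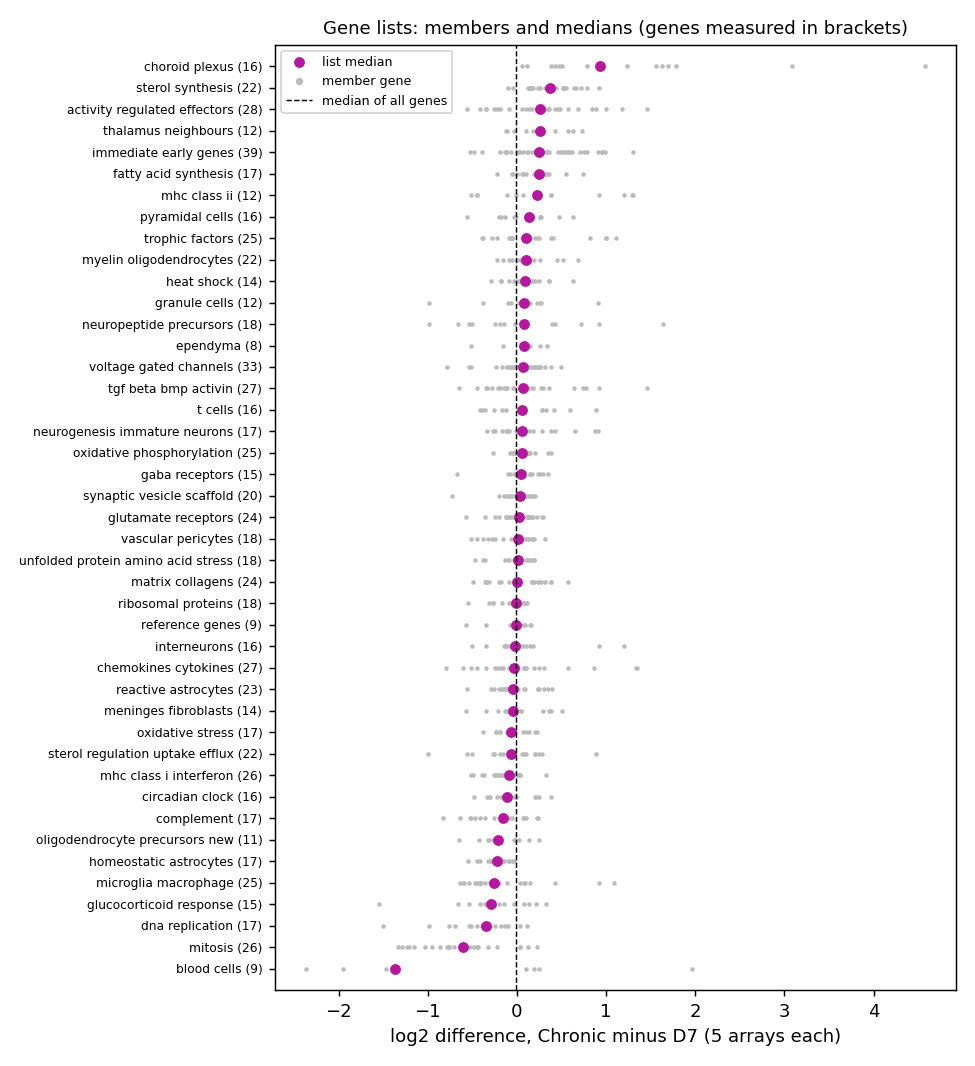
The log2 difference of Chronic minus D7 is plotted for each measured member (grey points) and the median (purple) of 43 gene lists, with the median of all 12331 genes as a dashed line. Sterol synthesis, with a median of 0.38, and mitosis, with -0.61, lie on opposite sides, and the wide rows are those of choroid plexus and blood cells.

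Genes are represented below by their probe with the highest mean. Over 12331 genes the median difference was -0.01, 48.2% of genes lay above 0 and 51.8% below, 4.85% were higher and 6.28% lower at an unadjusted p under 0.05, and the 5 values of each group did not overlap for 0.795% in the higher and 0.803% in the lower direction. At an adjusted p under 0.05, 0.138% of genes were higher and 0.0811% lower.

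Sterol synthesis genes were higher after the first seizure than at day 7, without reaching the Control level. Of 22 measured enzymes of 24 listed, 20 had a positive difference, 12 were higher and 0 lower at an unadjusted p under 0.05, and 5 rose at an adjusted p under 0.05. The median difference was 0.38 on the log2 scale. For 8 of the 22 the lowest Chronic array lay above the highest D7 array. The mean of the list, as a difference from Control, was -0.81, -0.73, -0.60, -0.78 and -0.77 on the D7 arrays and -0.41, -0.39, -0.57, -0.16 and -0.24 on the Chronic arrays. All 5 Chronic arrays thus stood above all 5 D7 arrays, with the smallest gap between D7 replicate 33 and Chronic replicate 43. On the D3 arrays the mean was -0.42 to -0.37, which is the range of Chronic replicates 41 and 42 and above every D7 array.

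**Figure D2:**
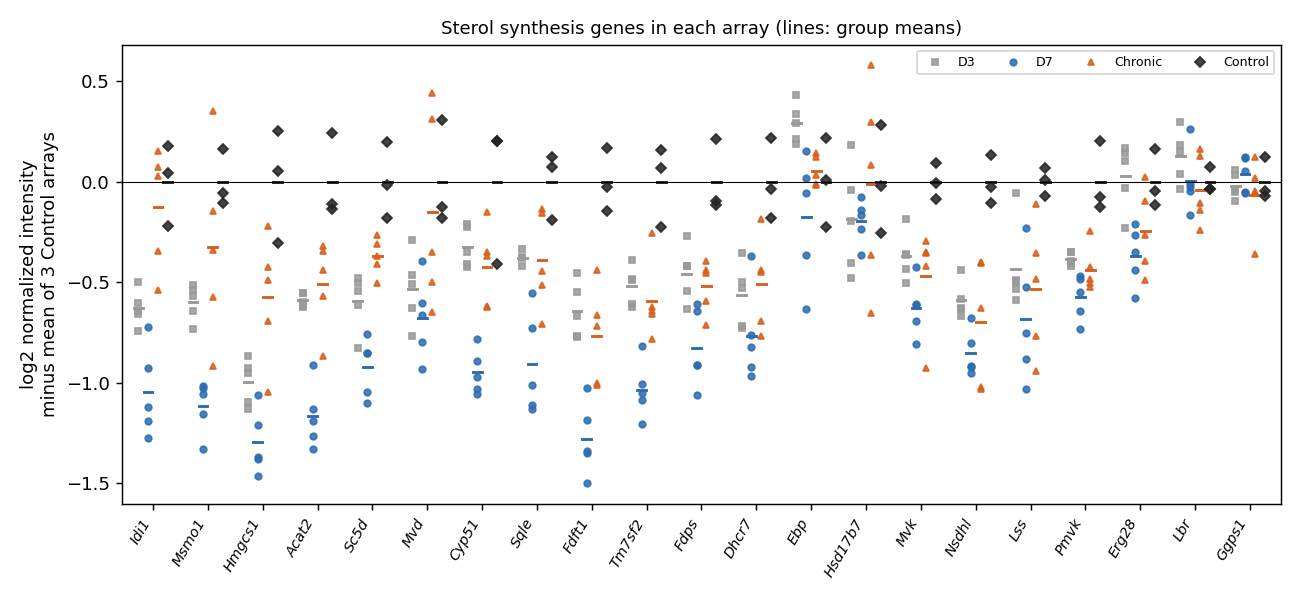
Each point is 1 array, as log2 normalized intensity minus the mean of the 3 Control arrays, for 21 of the 22 measured sterol synthesis genes in the order of their difference between Chronic (triangles) and D7 (circles), and lines are group means. The D7 arrays lie lowest for most genes from Idi1 to Dhcr7, the Chronic arrays between them and Control, and the genes at the right end differ little.

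The first steps of the pathway join acetyl-CoA units on the way to mevalonate. Acat2, which makes acetoacetyl-CoA, was at 2.26, 2.40, 2.34, 2.62 and 2.20 at D7 and 3.21, 2.96, 2.67, 3.19 and 3.09 in Chronic, a difference of 0.66 ± 0.11 (standard error; adjusted p = 0.0155). Hmgcs1, the HMG-CoA synthase of the cytosol, was at 4.74, 4.65, 4.90, 4.73 and 5.05 at D7 and 5.69, 5.62, 5.07, 5.89 and 5.42 in Chronic, a difference of 0.72 ± 0.14 (adjusted p = 0.0323). For both genes every Chronic array was above every D7 array. A second, dimmer Hmgcs1 probe was flagged as low signal on all D7 arrays and good on all Chronic arrays, and was at least 1.8-fold higher in Chronic (adjusted p = 0.0165).

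The middle steps turn mevalonate into the isoprene units from which squalene is built. Idi1, which interconverts the isoprene units, had the smallest p of the list, at 0.54, 0.63, 1.10, 0.70 and 0.89 at D7 and 1.85, 1.48, 1.28, 1.89 and 1.97 in Chronic, a difference of 0.92 ± 0.14 (adjusted p = 0.00789). Fdft1, the squalene synthase, was at 2.60, 2.91, 3.07, 2.76 and 2.75 at D7 and 3.09, 3.38, 3.10, 3.66 and 3.43 in Chronic, a difference of 0.51 ± 0.12 (adjusted p = 0.0843), again without overlap. Mvd, Fdps and Sqle, the squalene epoxidase, were higher by 0.53 ± 0.18, 0.31 ± 0.10 and 0.52 ± 0.13 at unadjusted p-values of 0.0082, 0.00764 and 0.000715. The mevalonate kinases Mvk and Pmvk, at 0.16 ± 0.11 and 0.14 ± 0.08, did not pass at an unadjusted p of 0.05. Ggps1, which leads off the sterol branch to geranylgeranyl groups for proteins, was at -0.10 ± 0.10.

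The late steps remove methyl groups from lanosterol and shift its double bonds. Msmo1, the sterol C4 methyl oxidase, was at 3.25, 3.28, 3.29, 2.98 and 3.15 at D7 and 3.97, 3.73, 3.39, 4.16 and 4.66 in Chronic, a difference of 0.79 ± 0.16 (adjusted p = 0.0435). Sc5d, the lathosterol desaturase, was at 2.76, 2.85, 2.76, 2.57 and 2.51 at D7 and 3.30, 3.24, 3.11, 3.34 and 3.20 in Chronic, a difference of 0.55 ± 0.09 (adjusted p = 0.0165). Cyp51, the lanosterol demethylase, was at 2.60, 2.54, 2.79, 2.52 and 2.68 at D7 and 2.95, 3.23, 2.96, 3.43 and 3.20 in Chronic, a difference of 0.52 ± 0.12 (adjusted p = 0.0801). Other probes of Fdft1, Sc5d and Sqle gave 0.21 ± 0.14, 0.34 ± 0.11 and 0.18 ± 0.17. Msmo1, Sc5d and Cyp51, and Tm7sf2 at 0.44 ± 0.10, had no overlap between the groups. Lss, Nsdhl, Hsd17b7, Ebp, Dhcr7 and Erg28 lay between 0.12 and 0.26 and missed an unadjusted p of 0.05, and Lbr, a nuclear envelope protein that shares a reductase step with Tm7sf2, was at -0.04 ± 0.12.

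Against Control, Idi1 was at -1.05 at D7 and -0.13 in Chronic, Hmgcs1 at -1.30 at D7 and -0.58 in Chronic, Acat2 at -1.17 at D7 and -0.51 in Chronic, Sc5d at -0.92 at D7 and -0.37 in Chronic and Msmo1 at -1.12 at D7 and -0.33 in Chronic, differences that share the same 3 Control arrays. None of the 5 genes passed in a fit of the 10 arrays alone, where the adjusted p ran from 0.104 for Idi1 to 0.343 for Msmo1. Without Chronic replicate 41 only Idi1 of the 5 stayed under an adjusted p of 0.05, while Msmo1 was also lost without 8 other arrays and Hmgcs1 without 5. The median of the list stayed above 0 without the D7 arrays that stood apart. The median was 0.34 without D7 replicate 31, 0.43 without D7 replicate 33 and 0.41 without both, where 1 of the 22 passed an adjusted p of 0.05. Among the 6 arrays with a choroid plexus mean above 0, the 2 D7 arrays were at -0.60 and -0.77 and the 4 Chronic arrays at -0.41, -0.39, -0.16 and -0.24. Below 0, D7 replicates 31, 32 and 34 were at -0.81, -0.73 and -0.78 and Chronic replicate 43 was at -0.57. The part of choroid plexus tissue in the sterol difference was not tested. Glial cells make much of the brain's sterol. The myelin list had a median of 0.10, with 4 of 22 genes higher and 0 lower at an unadjusted p under 0.05, and the list of homeostatic astrocyte genes one of -0.22. The part of cell composition in the sterol difference was not tested.

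The promoters of Insig1, a gene of sterol regulation described next, and of 4 of the 5 synthesis genes that rose are shown because these genes moved together and share a known regulator. Acat2, the other one that rose, is not shown, since its window holds none of the letters marked. The lines give the 250 bases before the annotated start of transcription, 5′ to 3′ on the strand of the gene, from RefSeq on the rat build GRCr8, and the capitals mark CCAAT or its reverse complement ATTGG, the letters bound by the factor NF-Y that acts beside SREBP-2 at sterol genes.
Hmgcs1, chr2:53382054-53382303, plus strand: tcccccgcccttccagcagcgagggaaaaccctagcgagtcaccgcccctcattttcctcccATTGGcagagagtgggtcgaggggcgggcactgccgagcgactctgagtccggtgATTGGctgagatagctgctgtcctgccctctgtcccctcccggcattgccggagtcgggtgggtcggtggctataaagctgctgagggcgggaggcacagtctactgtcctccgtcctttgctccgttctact
Idi1, chr17:66547525-66547774, minus strand: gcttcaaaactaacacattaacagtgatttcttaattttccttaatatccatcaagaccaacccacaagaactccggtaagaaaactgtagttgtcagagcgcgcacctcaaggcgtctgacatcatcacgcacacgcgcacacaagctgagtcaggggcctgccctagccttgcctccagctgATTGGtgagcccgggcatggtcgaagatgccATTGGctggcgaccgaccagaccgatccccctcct
Msmo1, chr16:29746863-29747112, plus strand: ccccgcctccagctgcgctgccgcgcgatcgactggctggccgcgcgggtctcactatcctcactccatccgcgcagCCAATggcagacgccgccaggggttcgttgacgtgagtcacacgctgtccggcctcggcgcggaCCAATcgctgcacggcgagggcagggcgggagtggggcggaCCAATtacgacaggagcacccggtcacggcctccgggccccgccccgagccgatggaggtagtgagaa
Sc5d, chr8:51538278-51538527, minus strand: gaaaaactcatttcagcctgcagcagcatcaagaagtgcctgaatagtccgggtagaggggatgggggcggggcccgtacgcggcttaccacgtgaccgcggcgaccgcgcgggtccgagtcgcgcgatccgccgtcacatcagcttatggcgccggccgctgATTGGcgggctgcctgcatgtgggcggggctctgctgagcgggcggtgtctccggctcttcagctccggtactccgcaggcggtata
Insig1, chr4:8057770-8058019, minus strand: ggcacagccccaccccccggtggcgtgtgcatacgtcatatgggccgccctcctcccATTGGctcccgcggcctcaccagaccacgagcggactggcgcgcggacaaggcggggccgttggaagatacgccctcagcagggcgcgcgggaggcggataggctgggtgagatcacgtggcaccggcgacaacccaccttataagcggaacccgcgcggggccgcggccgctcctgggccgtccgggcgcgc
In windows of 300 bases, which include 50 after the start, CCAAT was found on either strand in 14 of the 18 sterol synthesis promoters in the table (77.8%), against 37.5% of all 33469 promoters and 37.1% of the 10115 promoters of tested genes. The sterol regulatory element written as TCACNCCAC was in none of the 18 and in 1.12% of all promoters, which says only that these exact letters are not in the windows. Acat2, Cyp51, Dhcr7 and Erg28 held neither.

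Genes that govern sterol levels did not move in 1 direction. Insig1, which holds SREBP-2 in the endoplasmic reticulum and is itself switched on by it, was at 2.74, 2.65, 2.78, 2.59 and 2.80 at D7 and 3.96, 3.55, 3.04, 3.64 and 3.78 in Chronic, a rise of 0.88 ± 0.14 without overlap (adjusted p = 0.0135). Of the 22 measured genes of sterol regulation, uptake and efflux, 3 were higher at an unadjusted p under 0.05, Insig1, Vldlr (0.28 ± 0.11) and Srebf2 (0.21 ± 0.09), the gene of SREBP-2. Another 3 were lower, and these included genes of sterol export. Abcg1, a sterol exporter, was at 4.59, 4.61, 4.88, 4.55 and 4.5 at D7 and 3.85, 3.91, 4.54, 4.20 and 3.86 in Chronic, a difference of -0.55 ± 0.12 (adjusted p = 0.0622). Apoe, the main apolipoprotein of the brain, was at 7.78, 7.68 and 7.80 on the 3 D7 arrays with a usable spot and 7.01, 7.19, 7.52, 7.20 and 7.30 in Chronic, and its difference of -0.51 ± 0.12 leaves out D7 replicates 34 and 35, whose spots were flagged as contaminated. Mbtps2, a protease that frees SREBP-2, was at -0.99 ± 0.31 on a probe flagged as good on 4 D7 arrays and 1 Chronic array.

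Fatty acid synthesis genes lay in the same direction with smaller differences. Of 17 measured, 14 lay above 0, 7 were higher and 0 lower at an unadjusted p under 0.05, none at an adjusted p under 0.05 in limma or by the methods' test, and the median was 0.25. The mean of the list was -0.46 to -0.24 at D7 and -0.21 to -0.08 in Chronic relative to Control, so that all Chronic arrays lay above all D7 arrays, the closest being D7 replicate 33 and Chronic replicate 41. Fads1, the delta-5 desaturase, was higher by 0.55 ± 0.15 (adjusted p = 0.157), Scd, the stearoyl-CoA desaturase, by 0.74 ± 0.21 (adjusted p = 0.186) and Acss2, which makes acetyl-CoA from acetate, by 0.33 ± 0.10 (adjusted p = 0.228). Only Acss2 had no overlap, at 2.64, 2.96, 2.76, 3.12 and 2.87 at D7 and 3.15, 3.23, 3.15, 3.22 and 3.26 in Chronic. Fasn, the fatty acid synthase itself, was at 0.10 ± 0.11, and Acaca and Acly, which feed it, at -0.06 ± 0.07 and 0.07 ± 0.08.

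Immediate early genes were high on Chronic replicates 41, 44 and 45, lower on Chronic replicates 42 and 43, and high on a single D7 array, replicate 31. Of 39 measured genes of 42 listed, 31 had a positive difference with a median of 0.25. At an unadjusted p under 0.05, 9 were higher and 1 lower in limma. By the methods' test 3 were higher and 0 lower at that limit, against 3.28% and 3.67% of all genes. None of the 39 passed an adjusted p of 0.05 in limma or by the methods' test, and none separated the groups without overlap. The mean of the list relative to Control was 0.82, -0.20, -0.26, 0.08 and -0.11 at D7 and 0.64, 0.09, -0.33, 0.68 and 0.85 in Chronic. D7 replicate 31 was thus at the level of the highest Chronic arrays, Chronic replicate 42 lay just above D7 replicates 32 to 35, and Chronic replicate 43 was the lowest of all 10. The D3 arrays lay between -0.08 and 0.19.

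**Figure D3:**
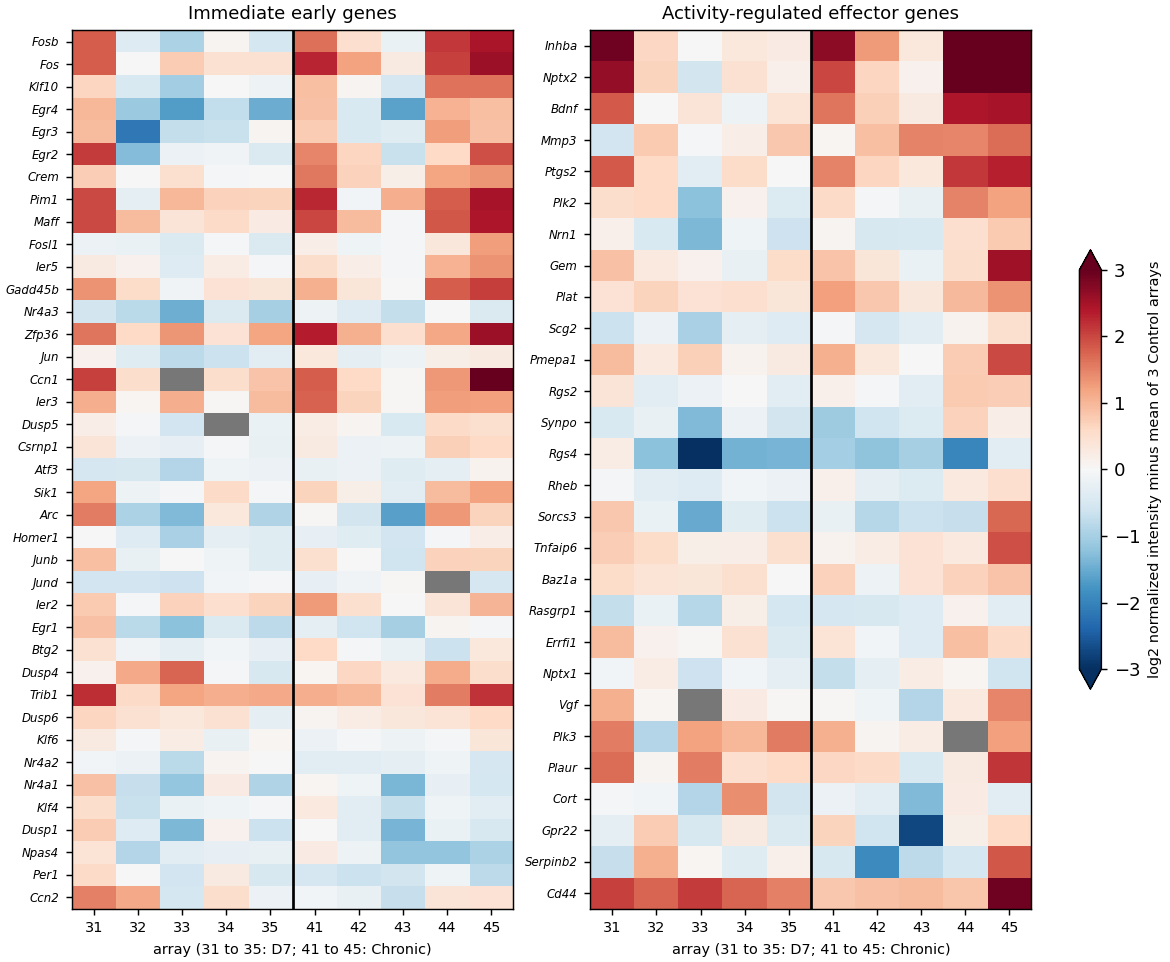
Colour gives log2 normalized intensity minus the mean of the 3 Control arrays, for 39 immediate early genes (left) and 28 activity-regulated effector genes (right) on the D7 arrays (31 to 35) and Chronic arrays (41 to 45), in the order of the difference between groups, with spots not usable in grey. The columns of 31, 41, 44 and 45 are red in the upper rows of both panels, while 42 is paler, and 43 resembles the other D7 arrays.

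Among the AP-1 genes, Fos and Fosb showed this plainly. Fos was at 4.07, 2.23, 2.99, 2.69 and 2.69 at D7 and 4.52, 3.46, 2.51, 4.30 and 4.80 in Chronic, a difference of 0.98 ± 0.37 (adjusted p = 0.378), and a second probe gave 0.59 ± 0.24. Fosb was at 1.34, -0.86, -1.43, -0.38 and -1.01 at D7 and 1.19, 0.04, -0.66, 1.64 and 1.97 in Chronic, a difference of 1.30 ± 0.48 (adjusted p = 0.361). For both genes all Chronic arrays but replicate 43 were above D7 replicates 32 to 35, and D7 replicate 31 lay among the Chronic values. Jun was at 3.40, 2.91, 2.49, 2.62 and 2.96 at D7 and 3.58, 2.99, 3.12, 3.45 and 3.53 in Chronic, higher by 0.46 ± 0.15 (adjusted p = 0.29). In Jun, unlike Fos and Fosb, Chronic replicate 43 was above D7 replicates 32 to 35. Fosl1, close to background, was higher by 0.58 ± 0.23 (adjusted p = 0.385).

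Other transcription factors of the list had the same pattern. Crem, which encodes the cAMP-induced repressor ICER, had the smallest p of the list, at 1.34, 0.62, 1.08, 0.56 and 0.59 at D7 and 2.18, 1.29, 0.76, 1.79 and 1.91 in Chronic, a difference of 0.75 ± 0.21 (adjusted p = 0.195). Klf10 was at 3.71, 2.59, 2.00, 3.04 and 2.90 at D7 and 3.96, 3.14, 2.56, 4.68 and 4.68 in Chronic, a difference of 0.96 ± 0.34 (adjusted p = 0.348). Ier5 was higher by 0.57 ± 0.21 and Nr4a3, an orphan nuclear receptor, by 0.52 ± 0.19, and neither separated the groups. Several of the best known members missed an unadjusted p of 0.05. Arc was at 0.23 ± 0.50, Egr1 at 0.11 ± 0.29, Junb at 0.20 ± 0.23 and Nr4a1 at -0.12 ± 0.34. Npas4 was flagged as good on 1 D7 and 1 Chronic array, too few for its difference to be read. Per1, which is also a clock gene, was the 1 gene lower at an unadjusted p under 0.05, at -0.48 ± 0.20 (adjusted p = 0.413).

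The limma count of genes depended on single arrays of both groups. Without D7 replicate 31, the array with high neutrophil genes, 17 of 39 were higher and 0 lower at an unadjusted p under 0.05, against 4.93% and 6.04% of all genes in that fit, and the median was 0.46. Without Chronic replicate 43 18 were higher and 1 lower, against 5.41% and 7.46% of all genes, with a median of 0.45, and 1 of them, Crem, passed an adjusted p of 0.05. Without Chronic replicate 45 the count fell to 6 and the median to 0.18. Without D7 replicates 31 and 33 together 15 of 38 were higher. The part of the neutrophil genes in these levels was not tested. Of the 28 immediate early gene promoters in the RefSeq table, 5 (17.9%) held the cAMP response element TGACGTCA. The share was 1.83% of all promoters and 2.85% of the promoters of tested genes. A CArG box, the site of serum response factor, was in 5 of the 28, against 1.64% of all promoters and 1.36% of those of tested genes.

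The effector genes that neurons switch on after activity followed the same arrays. Of 28 measured of 31 listed, 8 were higher and 0 lower in limma at an unadjusted p under 0.05, with a median of 0.27. None passed an adjusted p of 0.05 in limma or by the methods' test. At an unadjusted p under 0.05 the methods' test left 1 higher and 0 lower, against 3.28% and 3.67% of all genes. With array weights 3 were higher and 1 lower, against 3.8% and 4.72% of all genes. Inhba, the activin A subunit, was at 2.59, 0.30, -0.31, -0.01 and -0.09 at D7 and 2.36, 0.95, -0.01, 3.09 and 3.40 in Chronic, a difference of 1.46 ± 0.55 (adjusted p = 0.375). Plat, the tissue plasminogen activator, was at 3.66, 3.89, 3.67, 3.74 and 3.61 at D7 and 4.47, 4.03, 3.58, 4.21 and 4.58 in Chronic, with a difference of 0.46 ± 0.14 and the smallest p of the list (0.00349). In Plat, Chronic replicate 43 was the lowest of the 10 arrays and the other 4 Chronic arrays were the highest. Scg2 and Nrn1 were higher by 0.43 ± 0.18 and 0.58 ± 0.25, with p-values of 0.025 and 0.0315. Mmp3, which is among the 8, was flagged as low on all D7 arrays and good on 3 Chronic arrays, and its Chronic mean did not exceed the lowest good signals of the D7 arrays, so that no fold is given. Nptx2 at 1.17 ± 0.56 had a larger difference and larger spread, as did Bdnf at 1.0 ± 0.58, which was flagged as good on 1 D7 and 4 Chronic arrays. The limma count was 1 without Chronic replicate 44, 2 without D7 replicate 33 and 12 without Chronic replicate 43, where Plat passed an adjusted p of 0.05. Without Chronic replicate 45 1 was higher and 3 were lower, Cd44 among them at an adjusted p under 0.05, and the median was 0.08. The standard deviation within the group was larger in Chronic than at D7 for 22 of the 28 effectors, against 48.5% of all genes. For the immediate early genes the count was 22 of 39, nearer to the share of all genes.

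Among neuropeptide genes Tac3 rose and no other passed an adjusted p of 0.05. Tac3, the gene of neurokinin B in the rat, was at 1.45, 2.14, 1.44, 2.17 and 1.37 at D7 and 3.77, 2.94, 2.36, 3.73 and 3.95 in Chronic, a rise of 1.63 ± 0.26 (adjusted p = 0.0135). It was highest on Chronic replicates 41, 44 and 45, as were the immediate early genes, but D7 replicate 31 was at 1.45, inside the range of the other D7 arrays. Against Control it was at 0.08 at D7 and 1.71 in Chronic. Its adjusted p stayed under 0.05 when any 1 array was left out, at 0.0441 or less, and was 0.109 on the 10 arrays alone.

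Of the 18 measured neuropeptide precursors and granins, 4 were higher and 2 lower at an unadjusted p under 0.05. Without Chronic replicate 45 1 was higher and 1 lower. Npy, an inhibitory peptide, was at 4.71, 3.67, 2.73, 3.64 and 3.18 at D7 and 4.81, 3.85, 3.00, 4.69 and 6.18 in Chronic, a difference of 0.92 ± 0.42 (adjusted p = 0.464), with Chronic replicate 45 far above the rest. Cartpt was higher by 0.72 ± 0.28 (adjusted p = 0.385). Scg3, a granin-family protein of secretory granules, was lower, at -0.54 ± 0.14 (adjusted p = 0.143). Pdyn, the dynorphin precursor of granule cells, was at 3.58, 2.74, 1.74, 3.95 and 3.37 at D7 and 0.73, 2.21, 3.39, 2.19 and 1.90 in Chronic, a difference of -0.99 ± 0.43 (adjusted p = 0.447). It was lower than in Control at both times, with differences of -1.23 at D7 and -2.21 in Chronic.

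Single genes outside these groups were led by Usf3, a basic helix-loop-helix transcription factor, which had the smallest p of all probes. Usf3 was at 2.67, 2.54, 2.09, 2.35 and 1.90 at D7 and 3.30, 3.37, 3.36, 3.36 and 3.29 in Chronic, a rise of 1.02 ± 0.12 (adjusted p = 0.000856). The Chronic arrays were nearly equal and close to Control, from which the differences were -1.13 at D7 and -0.10 in Chronic, and D3 lay at 2.21 to 2.48. It was the only one of the named genes to stay under an adjusted p of 0.05 on the 10 arrays alone (0.0477). Spock1, a brain proteoglycan, was at 2.92, 2.66, 2.42, 2.80 and 2.66 at D7 and 3.33, 3.64, 3.32, 3.35 and 3.52 in Chronic, a rise of 0.74 ± 0.10 (adjusted p = 0.00788). Prox1, the homeobox factor that marks dentate granule cells, was at 0.04, 0.10, -0.51, -0.29 and -0.33 at D7 and 0.79, 0.70, 0.61, 0.46 and 0.97 in Chronic, a rise of 0.90 ± 0.15 (adjusted p = 0.0155). It was below Control at D7 and above it in Chronic, at -0.40 at D7 and 0.51 in Chronic. The 12 measured granule cell markers as a list had a median of 0.08, and Calb1 was at -0.37 ± 0.24. Ankrd37, an ankyrin repeat gene, rose by 0.73 ± 0.15 (adjusted p = 0.0435), a call kept in 2 of the 10 fits that each left out 1 array. The call of Prox1 was lost in 1 of these fits, without Chronic replicate 41, at an adjusted p of 0.056. Vegfa, the vascular growth factor, was higher by 1.0 ± 0.22 without overlap and with an adjusted p of 0.0684.

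**Figure D4:**
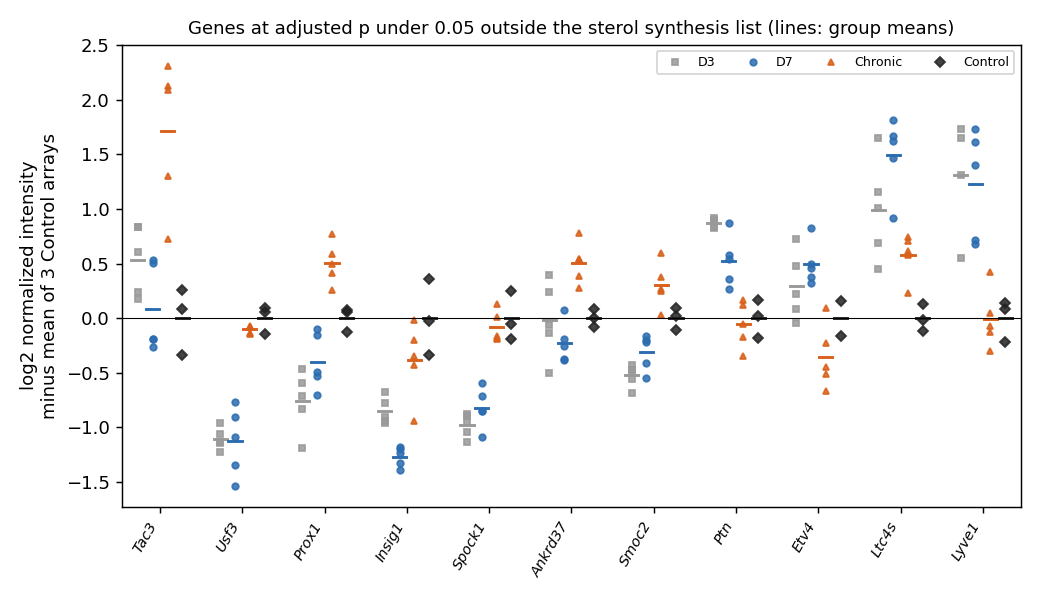
Each point is 1 array, as log2 normalized intensity minus the mean of the 3 Control arrays, for 11 genes that passed an adjusted p of 0.05 outside the sterol synthesis list, and lines are group means. Usf3, Spock1 and Prox1 lie below Control at D3 and D7, while Ltc4s and Lyve1 lie above Control at D3 and D7 and nearer to it in Chronic.

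Genes that fell included a pair expressed by macrophages. Lyve1, a hyaluronan receptor of lymph vessels and of macrophages along brain vessels, was at 1.39, 0.66, 0.71, 1.71 and 1.6 at D7 and 0.41, 0.03, -0.31, -0.08 and -0.15 in Chronic, a difference of -1.23 ± 0.23 (adjusted p = 0.0359). Against Control it was at 1.23 at D7 and -0.005 in Chronic, and its D3 values lay at 0.53 to 1.72. Ltc4s, the leukotriene C4 synthase of myeloid cells, was at 2.98, 2.22, 2.77, 3.12 and 2.93 at D7 and 1.53, 2.01, 1.89, 2.05 and 1.92 in Chronic, a difference of -0.92 ± 0.19 (adjusted p = 0.0483). Etv4, an ETS transcription factor, fell, at -0.85 ± 0.16 (adjusted p = 0.0368). These 3 calls were fragile, since Lyve1 stayed under 0.05 in 2 of 10 fits without 1 array, Ltc4s in 1 and Etv4 in 3. Among matrix and growth factor genes, one probe of Sparc, a matrix glycoprotein, fell, at -0.60 ± 0.10 (adjusted p = 0.0165) and its brighter probe was at -0.49 ± 0.14 (adjusted p = 0.177). Ptn, the growth factor pleiotrophin, fell, at -0.58 ± 0.11 (adjusted p = 0.0402), with -0.44 ± 0.15 on its other probe. Sparc lost its call without Chronic replicate 41, and Ptn kept its own in 3 of the 10 fits without 1 array.

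Several of the remaining calls rest on a probe that disagrees with another probe of the same gene, and no direction is given for those genes. A Gpat4 probe flagged as low on all Chronic arrays was at least 2.1-fold lower there (adjusted p = 0.0127), while the brighter Gpat4 probe was at 0.02 ± 0.09. A Dcx probe was at -1.07 ± 0.15 (adjusted p = 0.00788) and the brighter one at -0.01 ± 0.12. Usp34, Carhsp1 and Zfp652 disagreed in the same way. The called probes were at -1.02 ± 0.18, -0.95 ± 0.19 and 2.18 ± 0.44 and the brightest of the other probes at 0.13 ± 0.08, 0.41 ± 0.10 and -0.01 ± 0.13. A Dck probe was at 0.71 ± 0.11 (adjusted p = 0.00791) and the brighter one at -0.20 ± 0.13. For Fas, the death receptor, both probes were lower, at -1.13 ± 0.16 (adjusted p = 0.00788) and -0.38 ± 0.15. The Glp2r probe at -0.73 ± 0.14 (adjusted p = 0.0323) had a second probe at background. Of these calls Gpat4, Dcx, Dck and Fas were kept in all 10 fits without 1 array, Usp34 in 7, Glp2r in 5, Zfp652 in 2 and Carhsp1 in 1. Of the 17 probes called with the 2-fold limit, 7 name no gene, among them GE1113530 and GE1164752 (higher) and GE1181526 and GE1285080 (lower).

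Genes of cell division were lower after the first seizure than at day 7. Of 26 measured mitosis genes of 28 listed, 0 were higher and 15 lower at an unadjusted p under 0.05, none at an adjusted p under 0.05 in limma or by the methods' test, and the median was -0.61. The mean of the list over Control was 0.87, 0.41, 1.80, 0.45 and 1.18 at D7 and 0.31, 0.36, 0.32, 0.12 and 0.47 in Chronic, and 1.84 to 2.32 at D3. The D7 rats thus ranged from the Chronic level, in replicates 32 and 34, to just under the D3 range, in replicate 33, whereas the Chronic rats lay close together. Pbk, a mitotic kinase, was at 0.72, -0.33, 2.00, 0.05 and 1.10 at D7 and -0.79, -0.75, -0.38, -1.04 and -0.19 in Chronic, a difference of -1.34 ± 0.31 (adjusted p = 0.0968). Top2a, the topoisomerase of dividing cells, was at 1.30, 0.23, 3.02, 0.55 and 2.15 at D7 and 0.27, 0.03, 0.07, -0.38 and 0.80 in Chronic, a difference of -1.29 ± 0.37 (adjusted p = 0.195). In both genes the lowest D7 arrays lay within or next to the Chronic range. Cdk1, the kinase that drives entry into mitosis, was at -1.23 ± 0.33, with -1.21 ± 0.32 on a second probe, and Kif20a at -1.15 ± 0.33 without D7 replicate 32, whose spot was not usable. The standard deviation was larger at D7 for all but 4 of the 26 genes. Without D7 replicate 33 the median was -0.33 and 11 were lower at an unadjusted p under 0.05, against 6.65% of all genes in that fit. Without D7 replicates 31 and 33 together 8 of 25 were lower.

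DNA replication genes lay in the same direction, with a median of -0.35 and 7 of 17 lower and 0 higher at an unadjusted p under 0.05. Fen1, a nuclease of lagging-strand synthesis, was at 3.06, 3.03, 2.96, 3.10 and 2.90 at D7 and 2.69, 2.77, 2.73, 2.55 and 2.66 in Chronic, a small difference of -0.33 ± 0.08 without overlap (adjusted p = 0.119). Mcm7 was at -0.44 ± 0.13, Mcm6 at -0.76 ± 0.25 and Uhrf1 at -0.69 ± 0.24. Pcna, the clamp of the replication fork, was at 0.03 ± 0.12.

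Immune genes did not move as a block. Of 25 measured microglia and macrophage genes, 5 were lower and 0 higher at an unadjusted p under 0.05, with a median of -0.25. This rested on single arrays, since without D7 replicate 33 2 were lower and 3 higher with a median of -0.03, and without D7 replicate 32 12 were lower with a median of -0.47. Ctss, a lysosomal protease of microglia, was at -0.44 ± 0.12 (adjusted p = 0.186), C1qb at -0.63 ± 0.21 (adjusted p = 0.314) and P2ry12, a receptor of resting microglia, at -0.60 ± 0.23 (adjusted p = 0.392). The list remained over Control in both groups, at 1.29 to 2.67 and 1.34 to 2.32. Among 12 MHC class II genes 4 were higher and 3 lower at an unadjusted p under 0.05 in limma. By the methods' test 0 were higher and 1 lower at that limit. Cd74, the invariant chain, was at 3.48, 1.89, 4.88, 4.11 and 4.29 at D7 and 4.77, 5.43, 4.91, 4.65 and 4.93 in Chronic, a difference of 1.21 ± 0.41 (adjusted p = 0.32). RT1-Ba and RT1-Da, class II alpha chains, were higher by 1.29 ± 0.45 and 1.30 ± 0.46. These 3 genes were lowest on D7 replicate 32, without which the median of the list was -0.05 in place of 0.23, and class II genes are close relatives whose cross-hybridisation was not tested. Ctss, which is in this list too, and the antigen-loading genes RT1-DMa and RT1-DMb lay the other way, at -0.45 ± 0.19 and -0.52 ± 0.22. Of 26 measured class I and interferon genes 0 were higher and 0 lower at an unadjusted p under 0.05, and the mean of the list was 0.55, 0.31, 1.46, 0.23 and 2.51 at D7, so that D7 replicates 33 and 35 were high. Of 17 complement genes 3 were lower and 0 higher, and of 27 chemokines and cytokines 1 was higher, Cxcl1 at 1.33 ± 0.54, and 2 were lower, Il33 at -0.45 ± 0.15 and Cxcl12 at -0.51 ± 0.20. None of the genes in this paragraph passed an adjusted p of 0.05 in limma.

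Homeostatic astrocyte genes were all on the low side in Chronic. All 17 measured had a negative difference, with a median of -0.22, and 6 were lower at an unadjusted p under 0.05, a count of 3 without D7 replicate 34 or Chronic replicate 41. Glul, the glutamine synthetase, was at 7.05, 7.05, 6.91 and 7.01 on the 4 D7 arrays with a usable spot and 6.03, 6.27, 6.32, 6.63 and 7.02 in Chronic, a difference of -0.55 ± 0.15 (adjusted p = 0.193). Mlc1, a membrane protein of astrocyte end-feet, was at 4.23, 4.23, 4.08, 4.19 and 4.24 at D7 and 3.11, 3.85, 4.13, 3.58 and 4.04 in Chronic, a difference of -0.45 ± 0.14 (adjusted p = 0.259). Both were lowest on Chronic replicate 41, and the group ranges overlapped. Atp1b2 was at -0.29 ± 0.09 and Slc1a3, the glutamate transporter GLAST, at -0.32 ± 0.13. Of 23 reactive astrocyte genes 0 were higher and 0 lower at an unadjusted p under 0.05, and the median was -0.04. Of the 22 myelin genes, Opalin was higher by 0.68 ± 0.22 (adjusted p = 0.27), Car2 by 0.45 ± 0.15 and Ermn by 0.52 ± 0.23, while Mbp, at 0.10 ± 0.17, missed it. Of 11 genes of oligodendrocyte precursors and newly formed oligodendrocytes 3 were lower, Vcan, Bmp4 and Itpr2.

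**Figure D5:**
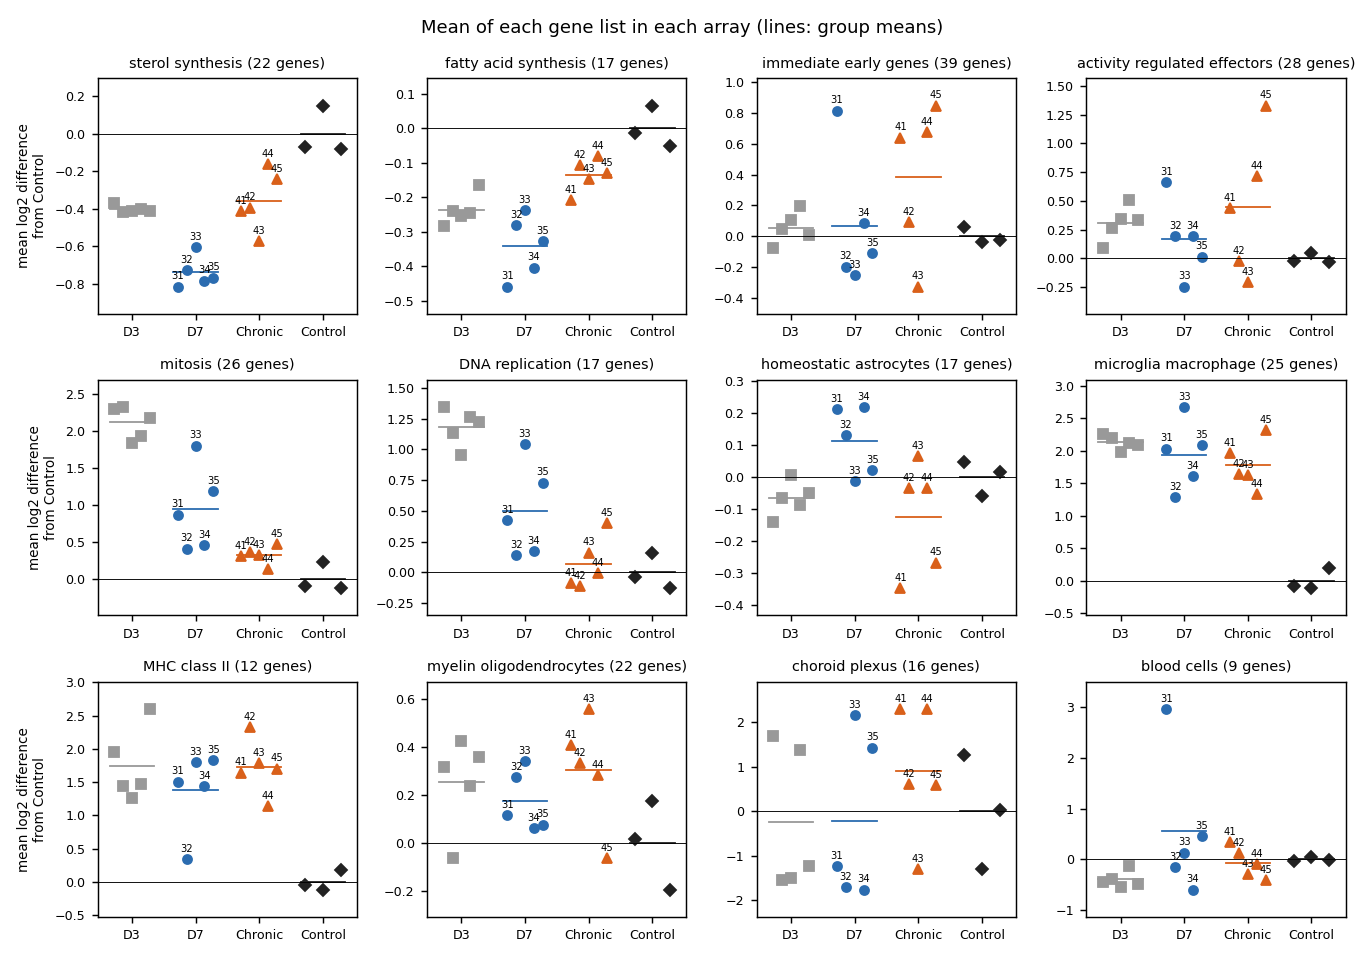
Each point is the mean over the genes of a list on 1 array, as a log2 difference from the Control mean, for 12 lists in the groups D3, D7, Chronic and Control, with the replicate number beside D7 and Chronic arrays and lines at group means. D7 and Chronic separate without overlap in the sterol synthesis panel, replicate 33 is the highest D7 array for mitosis and choroid plexus, and replicate 31 is the highest for blood cells and immediate early genes.

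Stress and steroid response genes differed in a few members. Of 15 measured glucocorticoid response genes 3 were lower and 1 higher at an unadjusted p under 0.05, with a median of -0.29. Sult1a1, a sulfotransferase, was at 3.67, 2.94, 1.37, 3.23 and 0.86 at D7 and 1.01, 0.91, 0.88, 1.37 and 0.17 in Chronic, a difference of -1.55 ± 0.39 (adjusted p = 0.119), and Nfkbia, the inhibitor of NF-kappaB, was at -0.66 ± 0.18 (adjusted p = 0.158). Nr3c1, the glucocorticoid receptor, was at 0.22 ± 0.10. Of 14 heat shock genes 4 were higher and 0 lower, Hsph1 at 0.36 ± 0.14, Hspb8 at 0.36 ± 0.14, Bag3 at 0.63 ± 0.28 and Stip1 at 0.16 ± 0.08, and their mean was highest on Chronic replicates 44 and 45. Without Chronic replicate 45 0 were higher and 2 lower, with a median of 0.001, and without D7 replicate 35 1 was higher and 1 lower.

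Lists of neuronal transmission lay close to the median of all genes. Of 24 glutamate receptor genes 0 were higher and 1 was lower at an unadjusted p under 0.05, Grin2c at -0.35 ± 0.11. Of 15 GABA receptor genes 1 was higher, Gabbr2 at 0.29 ± 0.12, and 0 were lower. Of 33 voltage-gated channels 1 was higher, the T-type calcium channel Cacna1g at 0.38 ± 0.12 (-0.001 as the mean over its probes), and 0 were lower. Of 16 pyramidal cell markers and 20 synaptic vesicle and scaffold genes none reached an unadjusted p of 0.05. The medians of these 5 lists ran from 0.02 to 0.14.

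Other lists held single genes past an unadjusted p of 0.05. Of 24 matrix genes 2 were lower, Sparc and Col1a1, and of 8 ependymal genes none passed. Of 27 genes of TGF-beta, BMP and activin signalling 3 were higher, among them Fst, the activin antagonist follistatin, at 0.75 ± 0.22, and 2 were lower. Of 25 trophic factor genes 3 were higher, among them Vegfa and Pdgfb at 0.25 ± 0.10, and Ntrk2, the receptor of BDNF, was lower, at -0.39 ± 0.15. Of 16 clock genes only Per1 passed, and of 16 interneuron genes Npy and Erbb4, which was flagged as low on all D7 arrays and at least 1.02-fold higher in Chronic. Of 25 oxidative phosphorylation genes 3 were higher and none lower, and of 18 vascular genes 3 were lower, among them Cldn5, a tight junction protein, at -0.27 ± 0.11. Of 16 T cell genes 2 were higher, Gzma at 0.60 ± 0.19 and Cd28, flagged as low on all D7 arrays and at least 1.17-fold higher. Of 18 genes of the unfolded protein response Herpud1 was lower, at -0.38 ± 0.14, and of 17 of oxidative stress Prdx6, at -0.38 ± 0.15. Of 17 genes of immature neurons, Dpysl3 at 0.88 ± 0.34 was higher beside Prox1, and Sox4 was lower, at -0.24 ± 0.09. Of 18 ribosomal protein genes 2 were lower, as were 2 of 9 reference genes. Each of these counts lay between 0 and 5 when any 1 array was left out, and that of oxidative phosphorylation was 0 without D7 replicate 33. The medians of these 14 lists ran from -0.11 to 0.10.

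Markers of tissues outside the hippocampus moved with the arrays more than with the groups. All 16 choroid plexus markers had a positive difference, with a median of 0.94, and 1 passed an unadjusted p of 0.05. That was Ttr, transthyretin, at 1.49, 1.09 and 1.36 on D7 replicates 31, 32 and 34 and 7.36, 6.64, 2.16 and 7.38 on Chronic replicates 41, 42, 43 and 45. Its spots on D7 replicates 33 and 35 and Chronic replicate 44 were saturated and were left out of the fit, so that the difference of 4.57 ± 1.25 sets the D7 arrays with little choroid plexus against Chronic and is no measure of the groups. Of 9 measured blood cell markers 3 were lower, the neutrophil genes Ngp, Camp and S100a8, whose high values were those of D7 replicate 31 for Ngp and S100a8, and Alas2 of red cells was higher by 1.97 ± 0.51. Of 14 meningeal genes 1 was lower, Col1a1 at -0.34 ± 0.12. Of 12 markers of thalamus 2 were higher, Synpo2 at 0.73 ± 0.31 and Nrn1, and Chronic replicate 41 was the array with the highest mean. The part of these tissues in the other differences was not tested.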

How the data were processed

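Hippocampal RNA was hybridised to 1-colour CodeLink rat whole genome arrays, 1 per rat. Per the methods of the study, the authors quantified spot intensities, corrected them for background and normalized them with the CodeLink software. The deposited data hold raw and normalized intensity values with a quality flag per spot. On each array, raw divided by normalized intensity gave a single constant. Groups follow the source names. Spots flagged good (G) or low (L) were kept, 0.699% of spots had another flag and were left out of a fit, values were floored at percentile 1 of each array and log2 transformed. All 18 arrays were fitted as 4 groups with limma 3.58.1 (eBayes with an intensity trend) in R 4.3.3, with at least 3 values per pilocarpine group, and the contrast of Chronic minus D7 was adjusted by Benjamini-Hochberg over 33800 probes. All p-values and adjusted p-values of genes are from this moderated model across all probes unless an exact permutation test is named. The scripts were tested on simulated data.

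Gene names came from the platform annotation (16740 probes) or an accession in RefSeq (205 probes), while 165 probes named several genes and 16739 none. The genes were named by rule: those called with the 2-fold limit, the 10 largest rises and falls at an adjusted p under 0.05, 8 sterol, 8 immediate early and 5 effector genes with the smallest p, up to 4 per other list, and markers of other tissues. Genes named beside these for their known roles, such as Arc, Egr1, Bdnf, Fasn, Mbp and Pcna, were chosen after their values were seen. A few genes that the rule or the lists hold are counted in the list values but not reported here by name. The comparison and the 43 lists (892 genes, 772 measured) were chosen with earlier results of these data known. A bound written as "at least" sets the brighter group against the lowest signal flagged good on each array. The number of arrays limits the precision. The limma p-values rest on the spread between rats pooled over the 4 groups, D3 and Control included, and not on that of D7 and Chronic alone. Other scalings, floors, filters, variance models and sample sets were tried. Normexp background correction and a slide or scan block were not run, since no separate background column or scan date was used here.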

Additional observations from a re-analysis of the deposited data

Results flagged for a closer look

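In 5 of 86 groups of 5 arrays tested (5.8%), 1 array lay far from the other 4 by Dixon's criterion. Chance gives about 1 in 20 (5%) for independent values, but the 86 come from the same arrays. The 5 do not hold every list with such an array, so their share does not measure how often arrays stood apart. D7 replicate 33 stood as far apart in other lists. Its granule cell mean was -0.741, against -0.313 to -0.163 on the other D7 arrays. Its oligodendrocyte precursor mean was 0.619, against 0.0 to 0.158 on the other D7 arrays. Its mean was 0.246 for reference genes, against -0.019 to 0.048, and -0.91 for synaptic vesicle and scaffold genes, against -0.485 to -0.317. The mean of the MHC class II list was 0.34 on D7 replicate 32, as a log2 difference from Control, against 1.44 to 1.83 on the other D7 arrays. The mean of the heat shock list was 0.02 on D7 replicate 35, against 0.15 to 0.2. Inhba, the activin A subunit, had a log2 intensity of 2.59 on D7 replicate 31, against -0.31 to 0.3 on the others. S100a8, a neutrophil gene, was at 3.65 on D7 replicate 31, against -2.0 to -0.77. In Chronic, S100a8 was at -4.64 on replicate 44, against -2.09 to -1.24 on the others. The value on replicate 44 is at the floor set for that array and is not a measured level.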

How the results depend on the processing

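No paired analysis was possible because D7 carries the numbers 31 to 35 and Chronic 41 to 45. On the 10 arrays alone 3 probes were higher and 0 lower in Chronic, with or without the 2-fold limit. With array weights 1 was higher and 8 lower with the limit, and 14 were higher and 13 lower without it. The methods' t-test left 0 in each case after adjustment. When each array was left out in turn, the probes called with the 2-fold limit ran from 2 (without Chronic replicate 41) to 15 (without Chronic replicate 43) higher and from 6 (without D7 replicate 31 or Chronic replicate 41) to 14 (without D7 replicate 32) lower. Without the limit they ran from 10 (without Chronic replicate 41) to 45 (without Chronic replicate 43) higher and from 7 (without Chronic replicate 41) to 38 (without Chronic replicate 43) lower. Without D7 replicates 31 and 33 together, an alternative chosen after seeing the data, 6 were higher and 1 lower with the limit, and 12 were higher and 3 lower without it. The cause was not tested.

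The sterol synthesis median ran from 0.326 to 0.428 and the immediate early gene median from 0.176 to 0.457 over all alternatives. Of the medians of the other lists, 4 values under an alternative moved by more than the spread between arrays. Of the single genes named by the rule, 167 values under an alternative missed a threshold of adjusted p that they had passed and 18 passed one that they had missed. Signs turned in 7 cases. With the mean over all probes of a gene, Usp34 was at 0.013, Cacna1g at -0.001, Fbn1 at -0.278 and Lhx9 at -0.103, since other probes enter. Without D7 replicates 31 and 33, Kcnc1 was at -0.029, Gabrb2 at -0.013 and Rsph1 at -0.005. Background correction by normexp and a block for slide or scan date were not run. Dim probes limit the calls, since a group flagged low on all arrays gives only a bound.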
